A study of Homo sapiens with 8 samples.

Results

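The 35 lysosome and autophagy genes described here encode the transcription factor TFEB and the lysosomal calcium channel MCOLN1, 5 membrane proteins, 3 subunits of the proton pump, 10 proteases, 6 glycosidases, 4 proteins of lipid breakdown and 5 proteins of autophagy. They were picked by name for their roles, with earlier results of these arrays already known, so the shares set beside the background are descriptions. All 35 had at least 1 probe set that names no other gene, 77 probe sets in all, and they are 35 of the 19775 genes measured this way. A gene is given by its brightest probe set, the probe set with the highest mean log2 signal over all arrays.

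Transcripts were read on 8 Affymetrix U133 Plus 2.0 arrays, 2 in each of 4 groups. MCF-10F is an immortalized, normal-like human breast epithelial line without exposure to high-dose estradiol. The clone trMCF clone 11 was grown from a single ring-cloned colony of MCF-10F cells transformed with 70 nM estradiol, so the transformed state is represented by 1 clone. The other groups are the same clone after 26 days in 1 μM or 10 μM all-trans retinoic acid (ATRA), the active acid form of vitamin A. All cells grew in medium with horse serum, EGF, insulin, hydrocortisone and cholera toxin, and the labels name DMSO as the vehicle of control cells without saying whether the arrayed trMCF clone 11 cells received it. Arrays were grouped by title; trMCF clone 11 replicate 1 carries a disease state tag of normal, against its title. The labels do not say whether replicates came from separate cultures, so the p-values measure the spread between these arrays, which may be technical.

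Lysosomes are acidic compartments in which proteases, glycosidases and lipid-degrading enzymes break down material that arrives by endocytosis or by autophagy. The vacuolar proton pump keeps them acidic, heavily glycosylated membrane proteins such as LAMP1 and LAMP2 line them, and autophagy encloses cytoplasm in membranes that carry proteins of the LC3 and GABARAP families before it fuses with them. Many of these genes are transcribed under TFEB and its relatives, which bind a short palindrome in their promoters and are held in the cytoplasm by the kinase mTORC1 when nutrients are plentiful.

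The palindrome lies close to the start site in several of these genes, and the stretches that hold it are shown because they let a reader see the letters beside the measured genes. RefSeq promoters of build GRCh38.p14, from 250 bases before to 50 bases after each start site, were on hand for 25 of the 35 genes, with 38 promoters in all. The letters CACGTG, which read the same on both strands, occurred in 9 of 38 promoters (23.7%), in 31 of 170 promoters of the other lysosome and autophagy genes described further on (18.2%) and in 2548 of all 35116 promoters in the table (7.26%). The longer TCACGTGA, which contains CACGTG, occurred in 5 of 38 (13.2%), 15 of 170 (8.82%) and 344 of 35116 (0.98%). Most member promoters hold neither. These shares count promoters and not genes, and CD63 alone has 8 of the 38. Counted so, they are nearer to those of the other genes of these pathways than to those of all promoters. The 5 genes that hold TCACGTGA are printed over the last 80 bases before the start site, 5′ to 3′ on the gene's strand, with these letters in capitals. ATP6V0D1 lies on the minus strand at chr16:67481158-67481237, CTSA on the plus strand at chr20:45891255-45891334, GAA on the plus strand at chr17:80101501-80101580, LAMP1 on the plus strand at chr13:113297159-113297238 and MCOLN1 on the plus strand at chr19:7522544-7522623.
ATP6V0D1: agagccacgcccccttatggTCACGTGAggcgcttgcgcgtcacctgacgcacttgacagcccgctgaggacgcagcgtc
CTSA: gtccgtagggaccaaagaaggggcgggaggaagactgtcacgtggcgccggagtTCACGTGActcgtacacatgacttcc
GAA: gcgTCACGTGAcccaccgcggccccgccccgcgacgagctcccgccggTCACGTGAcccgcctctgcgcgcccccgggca
LAMP1: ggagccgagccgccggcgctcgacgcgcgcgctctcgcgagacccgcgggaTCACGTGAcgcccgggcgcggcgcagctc
MCOLN1: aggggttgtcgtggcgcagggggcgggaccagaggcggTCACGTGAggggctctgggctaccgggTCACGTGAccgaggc
The GAA and MCOLN1 stretches each hold 2 copies, and LAMP1 has a further copy that spans its start site and is not in the printed stretch. None of these 5 genes passed the test with all arrays in any of the 6 comparisons between groups. Of the members that did pass, GPNMB, ULK1 and GABARAPL1 have promoters on hand, without these letters in this window. CTSK and LAMP2 also passed and have no promoter on hand. Whether the letters bear on the measured differences was not tested. A match is a run of letters, not a measured binding site.

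Signals are linear array intensities that were scaled before deposit; their median per array was 47.3 to 48.8, and every value below is a log2 signal or a difference of log2 signals. Groups were compared with limma, and a gene is called at a Benjamini-Hochberg adjusted p under 0.05 over all 54613 probe sets. Precision is limited by having only 2 arrays a group. The arrays of trMCF clone 11 differed most, with a root mean square log2 difference of 0.57 over all probe sets and 0.74 over the 35 genes, against 0.17 and 0.18 over these genes in the 1 μM and 10 μM groups. In that clone, 24 of 35 genes were higher on replicate 1, with a median gap of 0.39 for these genes and 0.08 for all genes, and 7 of 35 were over 2-fold apart. The comparisons with the clone are therefore also given with single arrays left out, where calls of the members were lost or gained. The 6 measured breast epithelial markers included KRT14, which fell by 6.66 in 10 μM ATRA against trMCF clone 11 (limma adjusted p = 0.00836), and none of the 6 was called between trMCF clone 11 and MCF-10F.

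**Figure D1:**
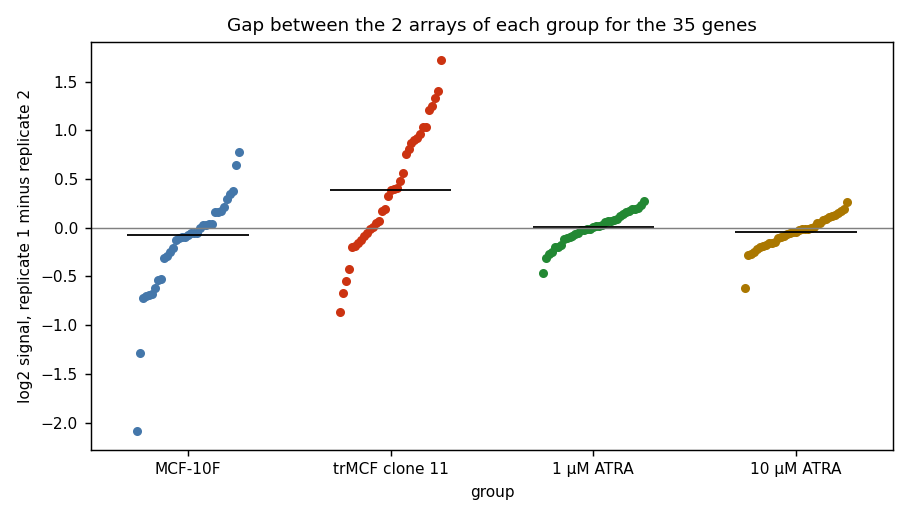
Gap in log2 signal between replicate 1 and replicate 2 of each group (y axis) for the 35 genes, 1 point per gene sorted by size within its group (x axis), with a bar at the median. The points of trMCF clone 11 lie mostly above 0, with a median of 0.39, while those of both ATRA groups lie close to 0.

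The first comparison asked which lysosome and autophagy genes differed between the estradiol-transformed clone and the cells it came from. GPNMB, a membrane glycoprotein of melanosomes and lysosomes, and ULK1, the kinase that starts autophagy, rose in trMCF clone 11, and no member fell. These are 2 of 35 genes (5.71%), beside 4.53% of all genes called in this comparison, and 1.88% called higher. The share called is near the background and is no result about the list as a whole. By limma, 16 of 35 (45.7%) had an unadjusted p under 0.05, beside 22.9% of all genes. The median difference of the 35 genes was 0.32, against 0.06 for all genes, with 21 of 35 differences above 0.

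GPNMB read 3.21 and 3.17 in the MCF-10F arrays, 8.05 and 6.71 in trMCF clone 11, 2.83 and 3.08 in 1 μM ATRA and 2.72 and 2.64 in 10 μM ATRA. Only the clone arrays were bright, and they did not overlap with the other 6. The rise was 4.19 (SE 0.42, limma adjusted p = 0.0146), or 18.2-fold. Its signal was under 16, near background, on every array outside the clone, so the fold is uncertain, and it is the only member under 16 on any array. With signals under 16 set to 16 the rise was 3.38 (adjusted p = 0.123). The second GPNMB probe set differed by 1.82 (adjusted p = 0.113). The call was also lost without MCF-10F replicate 1 (adjusted p = 0.0786) and without either 1 μM ATRA array (adjusted p = 0.0917), where 0.804% and 0.086% of all genes were called, and it was kept without trMCF clone 11 replicate 1, at 3.52 (adjusted p = 0.0105).

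ULK1 stood at 7.13 and 7.24 in MCF-10F, 8.34 and 8.01 in the clone, 6.87 and 6.93 in 1 μM ATRA and 6.88 and 7.10 in 10 μM ATRA. Its clone arrays were the highest of the 8. The rise of 0.99 (SE 0.17, adjusted p = 0.0409) amounts to 1.99-fold. It missed the threshold without trMCF clone 11 replicate 1 (0.83, adjusted p = 0.0643), without MCF-10F replicate 1 (0.94, adjusted p = 0.182) or 2 (1.04, adjusted p = 0.0882), and without either 1 μM ATRA array (0.99, adjusted p = 0.158). By limma with a trend and robust prior it was 0.99 (adjusted p = 0.0706), and with signals under 16 set to 16, 0.99 (adjusted p = 0.107).

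**Figure D2:**
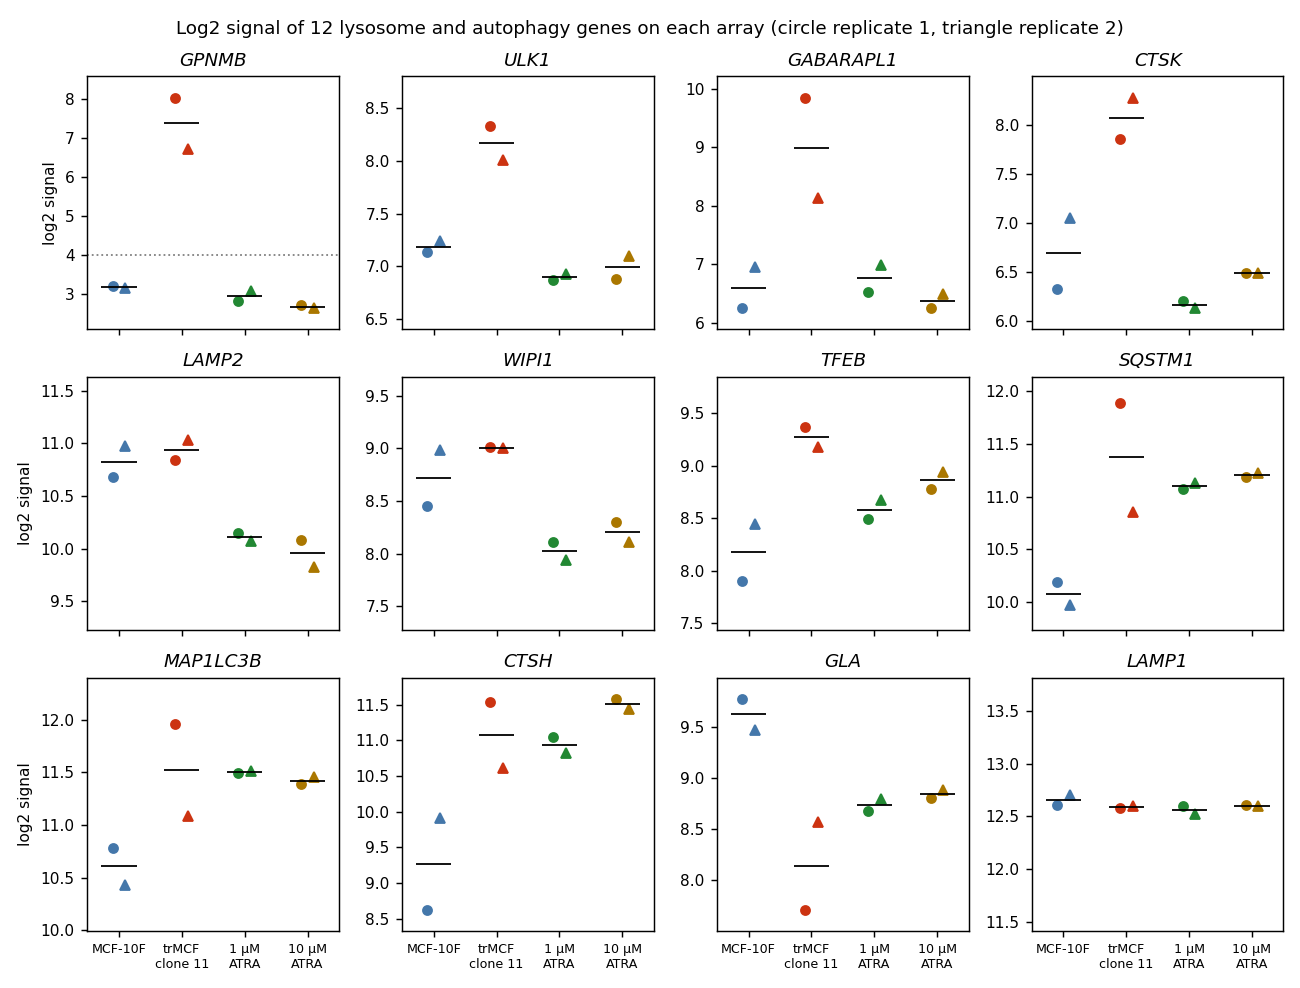
Log2 signal (y axis, with its own range in each panel) of 12 of the 35 genes on each array, by group (x axis). Circles are replicate 1, triangles replicate 2, bars the mean of the 2 arrays, and the dotted line a signal of 16; GPNMB, ULK1, GABARAPL1 and CTSK are highest on both trMCF clone 11 arrays, LAMP2 is lowest on the ATRA arrays, and LAMP1 stays between 12.53 and 12.70.

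Members that did not pass with all arrays also turned on single arrays. Without trMCF clone 11 replicate 2, 13 more members were called against MCF-10F (adjusted p from 0.00609 to 0.0482), where 17.9% of all genes were. Of these, CTSB, CTSF, CTSH, GAA, GABARAPL1, MAP1LC3B, NEU1, PSAP, SQSTM1, TFEB and TPP1 were higher in the remaining clone array, and GLA and NAGLU lower. Without MCF-10F replicate 2, CTSK at 1.75 (adjusted p = 0.0433) and TFEB at 1.37 (adjusted p = 0.0491) were called. No member was gained without trMCF clone 11 replicate 1, MCF-10F replicate 1 or either 1 μM ATRA array.

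Several autophagy genes next to ULK1 had large differences that did not pass. GABARAPL1, a ubiquitin-like protein attached to autophagosome membranes, read 6.25 and 6.95 in MCF-10F, 9.85 and 8.13 in trMCF clone 11, 6.53 and 6.99 in 1 μM ATRA and 6.25 and 6.50 in 10 μM ATRA. The clone arrays were above the other 6 but far apart (SD 1.22, n = 2), and the difference of 2.39 (SE 0.57) had a limma adjusted p of 0.0863. Its second probe set differed by 2.06 (SE 0.38) with an adjusted p of 0.0494. SQSTM1, the p62 receptor that carries ubiquitinated cargo into autophagosomes, read 10.18 and 9.97 in MCF-10F and between 10.86 and 11.89 on the other 6 arrays, which it did not overlap. Its difference was 1.29 (SE 0.34, adjusted p = 0.103). MAP1LC3B, the LC3 protein used as the standard mark of autophagosomes, likewise had its MCF-10F arrays lowest, with a difference of 0.91 (SE 0.30, adjusted p = 0.171), and WIPI1, which binds the lipid PI3P on forming autophagosomes, differed by 0.29 (SE 0.21, adjusted p = 0.523).

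TFEB itself stood at 7.91 and 8.45 in MCF-10F, 9.37 and 9.18 in trMCF clone 11, 8.49 and 8.67 in 1 μM ATRA and 8.78 and 8.94 in 10 μM ATRA. No group overlapped with MCF-10F, whose arrays were the lowest, or with the clone, whose arrays were the highest. The difference between clone and parent was 1.10 (SE 0.22, adjusted p = 0.0589). It passed without MCF-10F replicate 2, as given above, without trMCF clone 11 replicate 2 (1.19, adjusted p = 0.0421) and with all 8 arrays in the fit (1.10, adjusted p = 0.0222). MCOLN1, the channel that releases lysosomal calcium, read 7.06 and 6.28, 6.52 and 6.04, 6.93 and 7.20, and 6.85 and 6.90 in the same order of groups, and the clone differed from MCF-10F by -0.39 (SE 0.31, adjusted p = 0.559), with arrays that overlapped.

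None of the 10 proteases passed against MCF-10F. The cysteine protease CTSK, known for collagen breakdown by osteoclasts, came nearest among those above 0, with 6.33 and 7.05 in MCF-10F, 7.86 and 8.28 in trMCF clone 11, 6.20 and 6.13 in 1 μM ATRA and 6.48 and 6.49 in 10 μM ATRA. Its clone arrays were above the other 6, by a mean difference of 1.38 from MCF-10F (SE 0.28, adjusted p = 0.0594). CTSH, an aminopeptidase of the same family, read 8.63 and 9.92 in MCF-10F, 11.53 and 10.62 in the clone, 11.05 and 10.82 in 1 μM ATRA and 11.58 and 11.44 in 10 μM ATRA. The MCF-10F arrays were the lowest and differed among themselves (SD 0.91, n = 2), and the clone differed by 1.80 (SE 0.48, adjusted p = 0.111). CTSL, a broad endopeptidase, pointed the other way at -0.79 (SE 0.18, adjusted p = 0.073). The other 7 proteases, CTSA, CTSB, CTSD, CTSF, CTSS, CTSZ and TPP1, had differences from -0.72 to 0.72, and CTSS also lay over 2-fold apart between the MCF-10F arrays, at 6.08 and 8.17.

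Among the glycosidases the largest difference was that of GLA, the α-galactosidase that degrades globotriaosylceramide. GLA read 9.78 and 9.48 in MCF-10F, 7.71 and 8.57 in trMCF clone 11, 8.68 and 8.80 in 1 μM ATRA and 8.80 and 8.89 in 10 μM ATRA. MCF-10F was highest, the clone lowest, and the ATRA arrays lay between them without overlap. The clone differed by -1.49 (SE 0.30, adjusted p = 0.0593). The other 5, GAA, GUSB, HEXA, NAGLU and NEU1, ranged from -0.62 to 0.46 and none passed.

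Lipid breakdown, the proton pump and the remaining membrane proteins held no call here. ASAH1, the acid ceramidase, read 11.83 and 12.52 in MCF-10F, 11.39 and 11.52 in trMCF clone 11, 11.67 and 11.47 in 1 μM ATRA and 11.86 and 11.87 in 10 μM ATRA, a difference of -0.72 for the clone (SE 0.25, adjusted p = 0.184). PSAP, the precursor of the saposins that help enzymes reach sphingolipids, read 11.52 and 11.73, 12.70 and 11.80, 11.77 and 11.76, and 11.70 and 11.89 in the same order, with a difference of 0.63 (SE 0.30, adjusted p = 0.328). ATP6V1A, the catalytic subunit of the pump, stood at 11.40 and 12.02 in MCF-10F, 11.94 and 12.48 in the clone, 12.32 and 12.51 in 1 μM ATRA and 12.65 and 12.54 in 10 μM ATRA, and the clone and MCF-10F overlapped. LAMP1, a main structural protein of the lysosomal membrane, read 12.61 and 12.70 in MCF-10F, 12.58 and 12.60 in trMCF clone 11, 12.60 and 12.53 in 1 μM ATRA and 12.61 and 12.60 in 10 μM ATRA. Its group means spanned 0.09, the narrowest range of the 35 genes, and the 95% interval of the clone's difference from MCF-10F was -0.41 to 0.27.

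**Figure D3:**
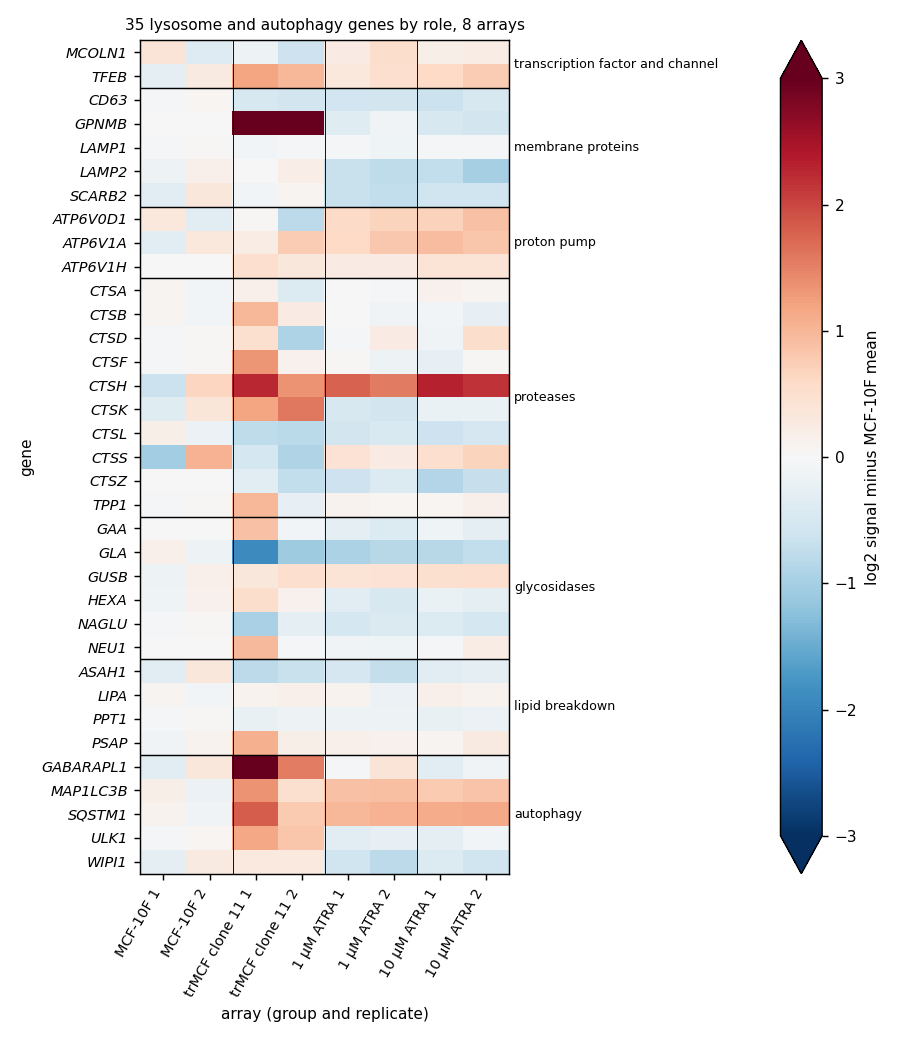
Log2 signal of each of the 35 genes minus its own mean over the MCF-10F arrays (colour, from -3 to 3) on the 8 arrays (x axis), with genes in rows by role (y axis). The red block of GPNMB and GABARAPL1 in the clone columns, the blue of LAMP2 and SCARB2 in the ATRA columns and the pale row of LAMP1 show the main patterns, and values beyond 3 have the end colour.

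The second comparison asked which of these genes moved when the clone was kept in ATRA. In 1 μM ATRA, GPNMB, ULK1 and CTSK fell against trMCF clone 11 and no member rose. The 3 genes are 8.57% of the members, beside 1.9% of all genes called in this comparison and 0.925% called lower. By limma, 12 of 35 (34.3%) had an unadjusted p under 0.05, beside 21.6% of all genes. The median of the 35 differences was -0.16, against -0.06 for all genes, and 13 of 35 were above 0. This comparison and the first share the trMCF clone 11 arrays, so opposite signs in them are not independent, and the values are given side by side.

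GPNMB fell by 4.42 (SE 0.42, adjusted p = 0.0201), after its rise of 4.19. ULK1 fell by 1.28 (SE 0.17, adjusted p = 0.0375), after 0.99. CTSK fell by 1.91 (SE 0.28, adjusted p = 0.0446), after a difference of 1.38 that did not pass. The treated arrays of all 3 genes lay below both clone arrays. Against MCF-10F the 1 μM arrays differed by -0.29 for ULK1 (95% interval -0.70 to 0.12) and by -0.52 for CTSK (-1.21 to 0.16). These intervals leave room for differences in either direction. For GPNMB the difference was -0.23 (-1.26 to 0.79), between arrays near background in both groups, so it says little about GPNMB.

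The calls in 1 μM ATRA rested on both treated arrays, since without either of them no gene of the 19775 was called. Without 1 μM ATRA replicate 1 or 2 the differences were -4.30 and -4.55 for GPNMB (adjusted p = 0.291 and 0.324), -1.25 and -1.31 for ULK1 (0.38 and 0.402) and -1.94 and -1.87 for CTSK (0.383 and 0.421). Without trMCF clone 11 replicate 1, GPNMB was called at -3.76 (adjusted p = 0.0217), while ULK1 at -1.12 (adjusted p = 0.0518) and CTSK at -2.12 (adjusted p = 0.0584) were not; without trMCF clone 11 replicate 2, GPNMB stood at -5.09 and 13 members were called, the added 10 being GLA, higher in ATRA, and CTSB, CTSF, GAA, GABARAPL1, HEXA, NEU1, PSAP, SQSTM1 and TPP1, lower in ATRA (adjusted p from 0.0102 to 0.0423), where 15.1% of all genes were called. ULK1 was also not called without either MCF-10F array (adjusted p = 0.0539), and no member was called with signals under 16 set to 16, where GPNMB was at -3.38 (adjusted p = 0.146).

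In 10 μM ATRA, 5 members fell against trMCF clone 11 and none rose. They were GPNMB, ULK1, CTSK, GABARAPL1 and LAMP2, which are 14.3% of the members, beside 7.83% of all genes called, 3.94% higher and 3.89% lower. By limma, 11 of 35 (31.4%) had an unadjusted p under 0.05, beside 24% of all genes. GPNMB fell by 4.70 (SE 0.38, adjusted p = 0.00273), ULK1 by 1.18 (SE 0.16, adjusted p = 0.012) and CTSK by 1.58 (SE 0.25, adjusted p = 0.0184). GABARAPL1 fell by 2.62 (SE 0.52, adjusted p = 0.0341), and its second probe set differed by -1.89 (SE 0.35, adjusted p = 0.0286). In 1 μM ATRA its brightest probe set differed by -2.23 (SE 0.57, adjusted p = 0.119).

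LAMP2, the membrane protein that serves as receptor of chaperone-mediated autophagy in its A isoform, read 10.68 and 10.97 in MCF-10F, 10.84 and 11.03 in trMCF clone 11, 10.15 and 10.07 in 1 μM ATRA and 10.09 and 9.83 in 10 μM ATRA. All 4 ATRA arrays lay below the other 4, and MCF-10F and the clone overlapped. LAMP2 fell by 0.98 in 10 μM ATRA against the clone (SE 0.17, adjusted p = 0.0222), or 1.97-fold, and differed from MCF-10F by -0.87 (SE 0.17, adjusted p = 0.0572). The 3 other LAMP2 probe sets differed from the clone by -0.46 to -0.59 at this dose and none passed, and the mean over all 4 probe sets was -0.64 (adjusted p = 0.0905). The probe sets may read different isoforms, which was not tested.

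All 5 calls were kept without trMCF clone 11 replicate 1, where GABARAPL1 was at -1.76, and without replicate 2, where it was at -3.48. Without replicate 2 another 9 members were called, GLA higher in ATRA and CTSB, CTSF, GAA, HEXA, NEU1, PSAP, SQSTM1 and TPP1 lower (adjusted p from 0.0036 to 0.0267), beside 20.3% of all genes. Without 10 μM ATRA replicate 1 no member was called, GPNMB being at -4.74 (adjusted p = 0.051), and without replicate 2 GPNMB alone was; ULK1 was then at -1.07 and -1.29 (adjusted p = 0.124 and 0.0858), CTSK at -1.58 and -1.59 (0.152 and 0.136), GABARAPL1 at -2.50 and -2.74 (0.219 and 0.179) and LAMP2 at -1.11 and -0.85 (0.12 and 0.166). Without either 1 μM ATRA array GPNMB and ULK1 stayed called, and CTSK (adjusted p = 0.0583), GABARAPL1 (0.0828) and LAMP2 (0.0676) did not. With signals under 16 set to 16, ULK1 alone was called and GPNMB differed by -3.38 (adjusted p = 0.0522).

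**Figure D4:**
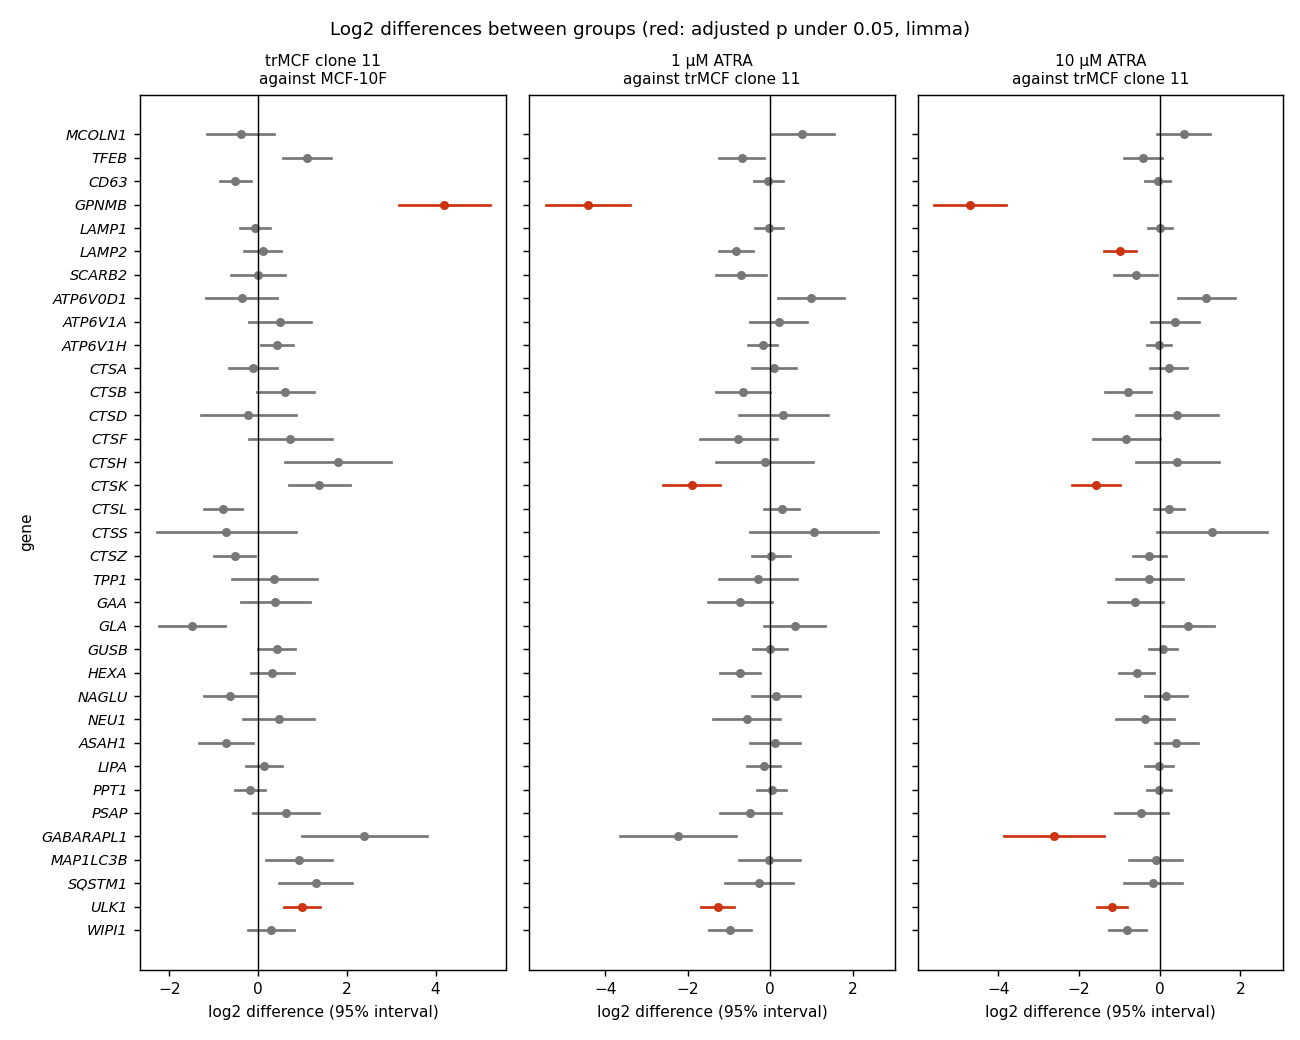
Difference in log2 signal between groups (x axis, with the 95% interval from limma) for each of the 35 genes (y axis, by role), for trMCF clone 11 against MCF-10F and for both ATRA doses against trMCF clone 11; red marks an adjusted p under 0.05. GPNMB stands far right in the clone and far left in ATRA, and most other intervals include 0.

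WIPI1 ranked next among the autophagy genes in ATRA. It read 8.45 and 8.98 in MCF-10F, 9.01 and 9.00 in trMCF clone 11, 8.11 and 7.94 in 1 μM ATRA and 8.30 and 8.11 in 10 μM ATRA, with the 4 ATRA arrays below the other 4. Its differences from the clone were -0.98 at 1 μM (SE 0.21, adjusted p = 0.0838) and -0.80 at 10 μM (SE 0.20, adjusted p = 0.061). The second passed without either MCF-10F array (-0.80, adjusted p = 0.0291) and with all WIPI1 probe sets averaged (-0.78, adjusted p = 0.0338), and the first with all 8 arrays in the fit (-0.98, adjusted p = 0.0355). SQSTM1 and MAP1LC3B kept values near the clone mean, with 11.07 to 11.22 for SQSTM1 and 11.39 to 11.51 for MAP1LC3B on the ATRA arrays, inside the range of the clone arrays. TFEB differed from the clone by -0.69 at 1 μM (SE 0.22, adjusted p = 0.176) and by -0.41 at 10 μM (SE 0.20, adjusted p = 0.322).

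Among the enzymes, CTSK alone passed in ATRA. CTSH in ATRA stayed within the range of the clone arrays at 1 μM and around its upper end at 10 μM, with differences of -0.14 (95% interval -1.32 to 1.05) and 0.44 (-0.60 to 1.47). The other proteases apart from CTSK differed from the clone by -0.83 to 1.30 at 10 μM, and none of them passed with all arrays. CTSS, at 1.30, passed without either MCF-10F array (adjusted p = 0.0141). GAA, which degrades glycogen, read 7.28 and 7.28 in MCF-10F, 8.15 and 7.19 in the clone, 7.01 and 6.87 in 1 μM ATRA and 7.15 and 6.98 in 10 μM ATRA. HEXA, the α subunit of the hexosaminidase that clears GM2 ganglioside, read 9.36 and 9.61, 10.01 and 9.61, 9.16 and 9.00, and 9.28 and 9.19 in that order. In both genes the 4 ATRA arrays were below the other 4, and neither passed at 1 μM (-0.73, adjusted p = 0.29, and -0.73, adjusted p = 0.132) or 10 μM (-0.61, adjusted p = 0.303, and -0.57, adjusted p = 0.123).

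The proton pump subunit ATP6V0D1 was the only member with all 4 ATRA arrays above the other 4. It read 10.68 and 10.04 in MCF-10F, 10.39 and 9.58 in trMCF clone 11, 10.94 and 11.02 in 1 μM ATRA and 11.06 and 11.24 in 10 μM ATRA. The differences from the clone were 0.99 at 1 μM (SE 0.33, adjusted p = 0.19) and 1.16 at 10 μM (SE 0.30, adjusted p = 0.0721), and without trMCF clone 11 replicate 1 the second was 1.56 and passed (adjusted p = 0.0248). ATP6V1A differed by 0.21 and 0.38 and ATP6V1H, a regulatory subunit, by -0.18 and -0.01, and neither passed.

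Counted by array order, 8 of 35 genes (22.9%) had both trMCF clone 11 arrays above the other 6, namely CTSB, CTSF, CTSK, GABARAPL1, GPNMB, TFEB, ULK1 and WIPI1, beside 12.8% of all genes. CTSL and GLA (5.71%) had them below, beside 12.6%. MCF-10F was above the other 6 arrays in 7 genes (20%; 8.67% of all genes) and below them in 6 (17.1%; 9.48%), the latter being ATP6V1H, CTSH, GUSB, MAP1LC3B, SQSTM1 and TFEB. The 4 ATRA arrays were below the other 4 in 7 genes (20%; 5.9% of all genes), GAA, GPNMB, HEXA, LAMP2, SCARB2, ULK1 and WIPI1, and above in 1 (2.86%; 7.25%). These counts are descriptions with no test.

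Against MCF-10F, the cells the clone came from, no member was called in either ATRA group. By limma 0 of 35 passed at 1 μM, with 12 at an unadjusted p under 0.05 (34.3%, beside 12.5% of all genes), beside 0.612% of all genes called (0.142% higher and 0.47% lower). At 10 μM 0 of 35 passed, with 15 at an unadjusted p under 0.05 (42.9%, beside 16.5% of all genes), beside 2.56% (0.759% higher and 1.81% lower). The largest differences at 10 μM were those of CTSH at 2.24 (SE 0.44, adjusted p = 0.06) and SQSTM1 at 1.12 (SE 0.31, adjusted p = 0.146), and both were also above 1 at 1 μM, at 1.67 (SE 0.48, adjusted p = 0.299) and 1.02 (SE 0.34, adjusted p = 0.359). Leaving out either trMCF clone 11 array changed the estimate of spread at 10 μM and not the differences, 2.24 for CTSH and 1.12 for SQSTM1. More genes passed then, over all genes as well as among the members, where they were CTSH, SQSTM1, CTSZ, GLA, LAMP2 and MAP1LC3B. Without MCF-10F replicate 2, CTSH at 2.88 (adjusted p = 0.0198) and CTSS at 1.63 (adjusted p = 0.0238) passed.

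Between the doses 0 of 35 members passed, with 3 at an unadjusted p under 0.05 by limma (8.57%, near the 6.67% of all genes), and 0% of all genes were called. The 3 were CTSH (0.57 higher at 10 μM, SE 0.13, adjusted p = 0.725), CTSK (0.32, SE 0.11, adjusted p = 0.725) and ASAH1 (0.29, SE 0.12, adjusted p = 0.729). In each of them both 10 μM arrays were above both 1 μM arrays. The interval of the dose difference was -0.20 to 0.39 for ULK1, and that of GPNMB, near background at both doses, is not given.

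GPNMB and CTSK are also known from melanocytes, macrophages and osteoclasts, so markers of those cells were read on the same arrays. None of the 8 macrophage, 5 melanocyte or 3 osteoclast markers measured was called in any comparison. The macrophage markers PTPRC and MRC1 and the melanocyte enzyme TYRP1 were under a signal of 16 on both arrays of every group. The summed signal of the melanocyte markers was 168 to 235 in trMCF clone 11 and 175 to 201 in the other groups, and that of the osteoclast markers 425 to 693 and 254 to 631. TNFRSF11A alone made up 211 to 645 of the osteoclast sums. The summed signal of the macrophage markers was 256 and 613 in MCF-10F, 427 and 320 in trMCF clone 11, 744 and 647 in 1 μM ATRA and 812 and 861 in 10 μM ATRA. CD14, a receptor for bacterial lipopolysaccharide, made up 436 to 661 of the sums in ATRA. It read 5.62 and 8.65, 7.22 and 6.76, 9.03 and 8.77, and 9.16 and 9.37 in that order of groups and differed by 2.27 at 10 μM against the clone (SE 0.82, limma adjusted p = 0.171). CTSS, a protease of antigen-presenting cells, read 6.08 and 8.17, 6.60 and 6.21, 7.56 and 7.37, and 7.63 and 7.78, with the same order of group means. A link between CTSS and CD14 was not tested. Of 8 fibroblast markers, COL1A2, DCN and FAP fell in trMCF clone 11 against MCF-10F. The summed signal of the 8 was 2307 to 3345 in MCF-10F, 789 to 1002 in the clone and 411 to 509 in ATRA. A link of these markers to CTSK was not tested. Every array is of MCF-10F or of a clone grown from it, so all these markers were read as transcripts of cultured epithelial cells. In bulk RNA, a change in some of the cells and a change in all of them cannot be told apart.

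Beyond the 35 genes, 149 other genes of the same pathways were measured, from a list of 163 sorted by role. In trMCF clone 11 against MCF-10F, 4 rose and 11 fell (10.1%, beside 4.53% of all genes), with a median of -0.03. In 1 μM ATRA against the clone 6 rose and 6 fell (8.05%, beside 1.9%), and in 10 μM ATRA 13 rose and 11 fell (16.1%, beside 7.83%). Of those that passed, 27 are named, up to 4 a role. The study had itself picked FLCN, ATG14, SORL1, ACP2, ATP6V0A2, FUCA1, FNIP2, OSTM1, TPCN2, CST6 and GPNMB on these arrays, so their direction here is not independent evidence.

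The circuit that couples mTORC1 to TFEB held 3 calls among 21 genes between clone and parent (14.3%, beside 4.53% of all genes). FLCN, the folliculin that lets mTORC1 act on TFEB, read 6.17 and 6.40 in MCF-10F, 7.98 and 7.99 in trMCF clone 11, 5.94 and 5.87 in 1 μM ATRA and 5.59 and 5.79 in 10 μM ATRA. It rose by 1.70 (SE 0.15, adjusted p = 0.012) and fell by 2.08 and 2.30 in the doses (adjusted p = 0.016 and 0.0016). Its partner FNIP2 went the other way, falling by 1.45 in the clone (adjusted p = 0.0327) and rising by 1.55 and 1.52 in ATRA (adjusted p = 0.0417 and 0.0103). RRAGD, a Rag GTPase that recruits mTORC1 to lysosomes and is itself a known TFEB target, read 6.54 and 7.96 in MCF-10F, 11.08 and 10.38 in the clone, 10.10 and 9.77 in 1 μM ATRA and 10.40 and 10.05 in 10 μM ATRA. It rose by 3.48 in the clone (SE 0.49, adjusted p = 0.0304), differed from the clone by -0.80 and -0.50 in ATRA (adjusted p = 0.452 and 0.641), and was still higher than MCF-10F by 2.98 at 10 μM (SE 0.45, adjusted p = 0.0273). DEPTOR, an mTOR inhibitor, differed by 2.72 in the clone (adjusted p = 0.0503) and fell by 2.92 at 10 μM (adjusted p = 0.0178).

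Autophagy genes outside the 35 were called on both sides. ATG14, which directs the lipid kinase VPS34 to forming autophagosomes, rose by 1.57 in the clone (adjusted p = 0.0319) and fell by 1.67 and 1.77 in 1 μM and 10 μM ATRA (adjusted p = 0.0408 and 0.00797). ATG4A, a protease that processes proteins of the GABARAP family, read 8.20 and 8.36 in MCF-10F, 6.20 and 6.22 in trMCF clone 11, 6.96 and 7.02 in 1 μM ATRA and 7.29 and 7.08 in 10 μM ATRA. It fell by 2.06 in the clone (adjusted p = 0.00649), rose in 10 μM ATRA by 0.97 (adjusted p = 0.0136) and remained below MCF-10F by -1.29 and -1.10 in the doses (adjusted p = 0.0381 and 0.0148). ATG16L1, part of the enzyme that attaches LC3 to lipid, rose at 10 μM by 0.74 (adjusted p = 0.0385), as did VPS33A, which acts in fusion with the lysosome, by 0.73 (adjusted p = 0.0462). RETREG1, a receptor for autophagy of the endoplasmic reticulum, fell by 1.29 and 0.85 in ATRA (adjusted p = 0.0445 and 0.0339). The calls of ATG16L1, VPS33A and RETREG1 were lost in most of the alternatives run. Among these the difference was as small as 0.26 for VPS33A at 10 μM. For RETREG1 it was as small as -0.32 at 1 μM and -0.22 at 10 μM.

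Of 42 further lysosomal enzymes and membrane proteins, 6 fell in the clone (14.3%, beside 2.64% of all genes) and none rose. FUCA1, the fucosidase, fell by 2.70 (adjusted p = 0.0245) and rose in 10 μM ATRA by 2.47 (adjusted p = 0.0127). ACP2, the lysosomal acid phosphatase, fell by 2.05 (adjusted p = 0.0143) and rose by 1.51 and 1.44 (adjusted p = 0.0393 and 0.0108), and TPCN2, a cation channel of the lysosome, fell by 1.73 (adjusted p = 0.014) and rose by 1.21 and 1.12 (adjusted p = 0.0414 and 0.0132). Among the alternatives run, the TPCN2 differences were as small as -0.56, 0.42 and 0.34 in that order. OSTM1, the partner of the chloride transporter CLCN7, fell by 1.43 (adjusted p = 0.0266) and rose in 10 μM ATRA by 1.26 (adjusted p = 0.0135). CTSO, a further cysteine protease, fell by 1.23 in the clone (adjusted p = 0.0323). In 10 μM ATRA, MANBA, the β-mannosidase, fell by 1.49 (adjusted p = 0.0241), GM2A, the activator protein for GM2 breakdown, by 1.77 (adjusted p = 0.0177) and LGMN, an asparagine-specific protease, by 0.90 (adjusted p = 0.0235). SORL1, a sorting receptor and not among the 42, was called lower than the clone in 1 μM ATRA (-1.69). It fell by 1.76 in 10 μM ATRA (adjusted p = 0.0115).

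The proton pump changed in different directions by subunit. ATP6V0A2 fell by 1.55 in the clone (adjusted p = 0.0249) and rose by 1.45 and 1.29 in ATRA (adjusted p = 0.0414 and 0.0135). Among the alternatives run, these differences were as small as -0.58, 0.49 and 0.46. ATP6V1D fell by 1.06 in the clone (adjusted p = 0.0301) and was still lower than MCF-10F by -0.96 at 10 μM (adjusted p = 0.0283), whereas ATP6V1B2 rose by 1.04 in the clone (adjusted p = 0.0333). ATP6V0E2 rose in both doses by 1.39 (adjusted p = 0.0414 and 0.0102), beside a difference of -0.47 in the clone that did not pass.

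Some genes were lower in ATRA than in both other groups. SGSH, a sulfatase of heparan sulfate breakdown, read 7.06 and 7.10 in MCF-10F, 6.94 and 6.83 in trMCF clone 11, 5.11 and 5.42 in 1 μM ATRA and 5.31 and 4.92 in 10 μM ATRA. It fell by 1.62 and 1.77 against the clone (adjusted p = 0.0234 and 0.00547) and by 1.82 and 1.97 against MCF-10F (adjusted p = 0.0211 and 0.00477). BNIP3, a mitophagy receptor, read 11.57 and 12.38, 11.96 and 12.31, 10.51 and 10.49, and 10.51 and 10.16 in the same order, and fell at 10 μM by 1.80 against the clone and by 1.64 against MCF-10F (adjusted p = 0.0169 and 0.039). In contrast, IDS, a further enzyme of heparan sulfate breakdown, was already lower in the clone, having fallen by 1.62 (adjusted p = 0.013). It stayed lower than MCF-10F in ATRA, by -1.72 and -2.09 (adjusted p = 0.0193 and 0.00154), and was not called in ATRA against the clone.

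**Figure D5:**
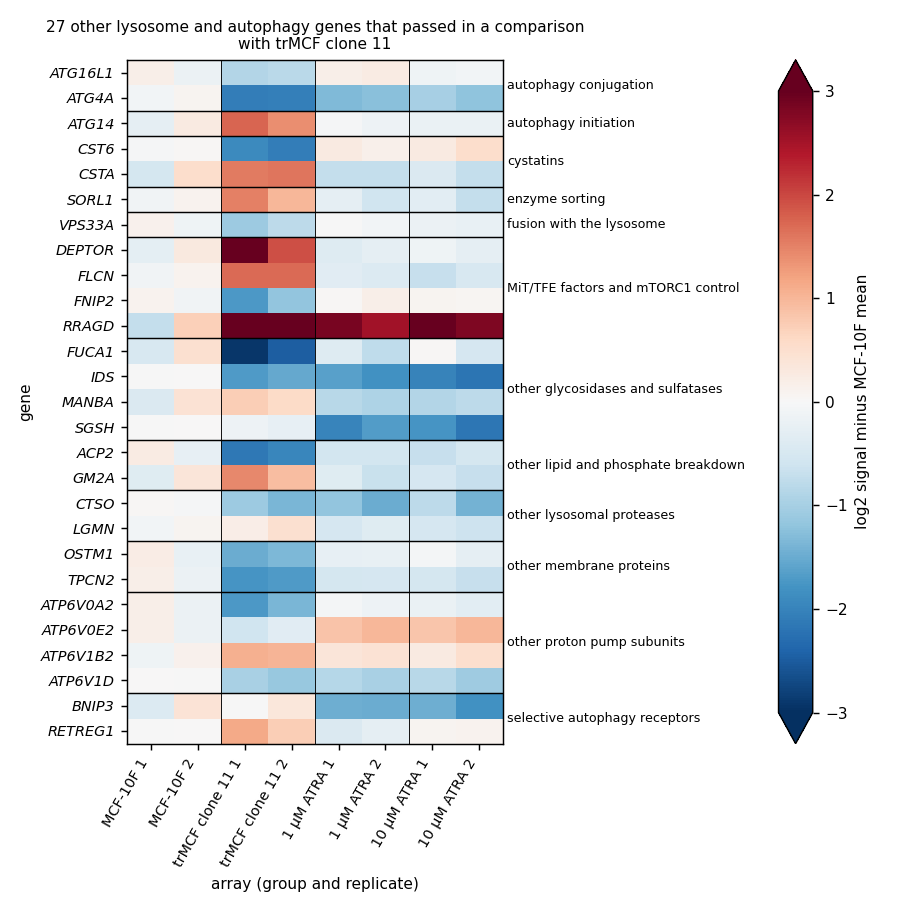
Log2 signal minus the gene's mean over the MCF-10F arrays (colour, from -3 to 3) on the 8 arrays (x axis) for 27 other lysosome and autophagy genes with an adjusted p under 0.05 in a comparison with trMCF clone 11 (y axis, by role). FUCA1, ACP2 and TPCN2 are blue in the clone columns and paler in ATRA, FLCN and ATG14 are red in the clone columns only, RRAGD is red in all columns but MCF-10F, and SGSH and BNIP3 are blue only in ATRA.

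These calls also depended on single arrays and on the fit. Of the 15 calls of these genes between clone and parent, 10 were kept without trMCF clone 11 replicate 1, 15 without its replicate 2, 3 and 11 without MCF-10F replicates 1 and 2, and 0 without either 1 μM ATRA array. Of the 12 in 1 μM ATRA, 3 were kept without trMCF clone 11 replicate 1, 12 without its replicate 2, 9 without either MCF-10F array and 0 without either 1 μM array. Of the 22 named in 10 μM ATRA, 18 and 22 were kept without trMCF clone 11 replicates 1 and 2, 3 and 2 without 10 μM replicates 1 and 2, 14 without either 1 μM array and 22 without either MCF-10F array. Against MCF-10F, 0 of 3 calls at 1 μM were kept without either 1 μM array or either MCF-10F array, and of 6 at 10 μM, 2 and 1 were kept without 10 μM replicates 1 and 2, 2 without either 1 μM array, and 5 and 4 without MCF-10F replicates 1 and 2. With signals under 16 set to 16, 4 of the 15, 2 of the 12 and 8 of the 22 calls were kept, and with only the 4 arrays compared 0, 9 and 11. With all probe sets of a gene averaged it was 11, 8 and 19.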

How the data were processed

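Expression was measured on 8 Affymetrix U133 Plus 2.0 arrays. The deposited values are intensities that the authors summarised per probe set and scaled between arrays; both MAS 5.0 (globally scaled) and Iterative Plier 16 appear in their methods, and the sources used here do not say which gave the table. The RNA kit differs between the labels and the methods. Intensities were converted to log2 and not rescaled. The table holds 54675 probe sets; 62 controls were dropped, and 41091 of the remaining 54613 name 1 gene, 1801 several and 11721 none in the platform annotation, with symbols updated to RefSeq. limma 3.58.1 in R 4.3.3 (lmFit, eBayes) was fitted to 6 arrays (without the 10 μM group) for comparisons among the other groups, to all 8 arrays for 10 μM ATRA against MCF-10F or the clone, and to the 4 ATRA arrays for the doses, and checked on simulated data. Named members were those called, TFEB, MCOLN1, GPNMB, LAMP1, SQSTM1 and the largest differences in each role; other pathway genes were named by smallest p, up to 4 a role. The members and lists were chosen with earlier results of these data known. Alternatives were other arrays in the fit, quantile normalization, no dimmest 33%, a floor of 16, a prior with trend and robust settings, a replicate block, other probe sets, the methods' fold of 2 with an unadjusted p under 0.05, and each array left out. No detection calls were used. Promoter letters were read from a RefSeq table. Figures were drawn with matplotlib 3.10.9.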

Additional observations from a re-analysis of the deposited data

How the results depend on the processing

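No difference of a member or of a named pathway gene changed its sign while it was called, under any alternative run. The number of members called moved more. For trMCF clone 11 against MCF-10F it was 2 as reported, 8 with all 8 arrays in the fit, 0 with only the 4 arrays compared, 1 without the dimmest 33% of probe sets, 0 with signals under 16 set to 16, 1 with a trend and robust prior, 7 by the methods' rule (fold of 2, unadjusted p under 0.05), and 0 to 15 with single arrays left out. For 1 μM ATRA against trMCF clone 11 it was 3, and 5 with all 8 arrays, 2 with only the 4 arrays compared and 2 with a trend and robust prior (ULK1 lost, adjusted p = 0.0539 and 0.0519), 2 without the dimmest 33% (GPNMB not tested), 0 with the floor of 16 and 0 to 13 with single arrays left out. For 10 μM ATRA against trMCF clone 11 it was 5, and 2 with only the 4 arrays compared, 1 with the floor and 0 to 14 with single arrays left out. Against MCF-10F it was 0 at both doses; at 1 μM it was 2 by fold and unadjusted p, and at 10 μM 1 with only the 4 arrays compared (SQSTM1), 1 after quantile normalization (LAMP2), 1 with a trend and robust prior (CTSH), 2 with a gene's probe sets averaged (ATP6V1A and LAMP2), 2 by fold and unadjusted p (CTSH and SQSTM1), and 0 to 6 with single arrays left out. The high ends, 15, 13 and 14, came without trMCF clone 11 replicate 2, where 17.9%, 15.1% and 20.3% of all genes were called. The share of all genes called moved as well. For trMCF clone 11 against MCF-10F it was 4.53% as reported, 10.3% with all 8 arrays and 0.086% with only the 4 arrays compared. It was 0.491% with the floor of 16 and 9.2% by the methods' rule. In 1 μM ATRA against the clone it was 1.9%, and 7.27% with all 8 arrays. In 10 μM ATRA against the clone it was 7.83%, and 2.05% with only the 4 arrays compared. A fit that leaves an arm with 1 array assumes that it varies like the other groups.

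With the replicate number as a block, 1, 2, 0, 4, 0 and 0 members were called in the order clone against MCF-10F, 1 μM ATRA against the clone and MCF-10F, 10 μM ATRA against the clone and MCF-10F, and 10 μM against 1 μM. Of the members' calls, ULK1 was lost in the clone (adjusted p = 0.0687) and at 1 μM (adjusted p = 0.0643), and GABARAPL1 at 10 μM (adjusted p = 0.0505). Of the calls of other pathway genes, the block kept 11 of 15 in the clone, 3 of 12 and 20 of 22 in 1 μM and 10 μM ATRA against the clone, and 2 of 3 and 6 of 6 against MCF-10F. Deviations of same-numbered arrays from their group means correlated by -0.06 to 0.35 over probe sets, and with 2 numbers a group the arrays share only a number. Signals near background limit GPNMB, and the cause of these shifts was not tested.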

Other observations

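The cystatins, inhibitors that hold cathepsins in check outside the lysosome, were called in opposite directions. CST6, an inhibitor of legumain and CTSL, read 10.39 and 10.46 in MCF-10F, 8.52 and 8.35 in trMCF clone 11, 10.70 and 10.57 in 1 μM ATRA and 10.69 and 10.96 in 10 μM ATRA. The clone arrays were far below the other 6. CST6 fell by 1.99 in the clone (SE 0.15, limma adjusted p = 0.00751) and rose by 2.20 and 2.39 in ATRA (adjusted p = 0.016 and 0.0016). CSTA, an inhibitor of cysteine proteases in epithelia, read 10.88 and 11.95, 12.98 and 13.01, 10.69 and 10.69, and 10.98 and 10.70 in the same order. It differed by 1.58 in the clone (SE 0.34, adjusted p = 0.0682) and fell by 2.31 and 2.15 in ATRA (adjusted p = 0.0451 and 0.0145). The other 6 of 8 cystatins measured were called in none of these 3 comparisons.

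The relatives of TFEB, looked at after their values were seen, did not share its pattern of means. MITF was at 8.81 in MCF-10F, 7.52 in trMCF clone 11, 8.73 in 1 μM ATRA and 8.72 in 10 μM ATRA; it differed by -1.29 in the clone (adjusted p = 0.0621) and rose in 10 μM ATRA by 1.20 (adjusted p = 0.0366). TFE3 was at 9.22, 8.90, 8.49 and 8.34, with no call, and TFEC was near background in all groups, at 2.94 to 3.02. MTOR, the kinase of mTORC1, rose by 0.92 at 10 μM against the clone (SE 0.17, adjusted p = 0.0256). The proton pump subunit ATP6V1H gave different values by probe set at 10 μM against the clone, with -0.01 (adjusted p = 0.98) at the brightest and 0.84 (adjusted p = 0.0307) at another.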
